A study of Homo sapiens with 12 samples.

Results

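The genes of cholesterol and fatty acid synthesis described here were 32 named members, taken from a given list of symbols and found by Ensembl identifier among 62702 genes with values. They comprised 6 genes of the mevalonate pathway, 11 of the squalene and sterol steps, 4 regulators built around the SREBP transcription factors, 8 of fatty acid synthesis and 3 of sterol transport or response to LXR. The 8 include ACAT2, a cytosolic thiolase that makes acetoacetyl-CoA for the mevalonate pathway. All 32 passed the filter on low counts that left 17677 genes for testing. RNA came from MCF10AT, an HRAS-transformed derivative of the MCF10A human breast epithelial line, expressing the long human prolactin receptor hPRLrL together with the intermediate form hPRLrI. In the intact groups hPRLrI kept its I-tail, and in the deleted groups the I-tail of hPRLrI was removed while hPRLrL was shared by both. All cells were starved of serum for 24 h in medium with 0.1% BSA, and were then left untreated or given prolactin (PRL) at 250 ng/ml for 2 h. The 4 groups (intact untreated, intact PRL, deleted untreated and deleted PRL) held 3 libraries each, labelled biological replicates. The labels do not say how the receptors were introduced or whether a line was 1 clone. The study asked what the I-tail contributes to the transcriptional response to PRL.

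Animal cells build cholesterol from acetyl-CoA through mevalonate, isoprenoid diphosphates, squalene and a series of sterol intermediates. SREBP-2 and SREBP-1, made from SREBF2 and SREBF1, are held in the endoplasmic reticulum by SCAP and INSIG proteins when sterols are plentiful, and travel to be cleaved into active factors when sterols fall. They bind sterol regulatory elements, usually beside CCAAT boxes and GC boxes, in promoters of many of the enzymes named here, SREBP-1 with more weight on fatty acid genes. LXR, a receptor for oxysterols, drives ABCA1 and MYLIP, which lower cell cholesterol. In the mammary epithelium PRL, acting through JAK2 and STAT5, is known to support the milk lipid programme during lactation.

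RefSeq promoter windows (GRCh38.p14, 250 bases before to 50 after each start) were found for 28 of the 32 members. The 250 bases before the start are shown for 5 of them on the gene's own strand, 5′ to 3′: SREBF2, the member whose window held a sterol regulatory element of the TCACNCCAC form, FDPS and MVD, which had the highest fitted differences for PRL, INSIG1, the feedback regulator, and MYLIP, which had the lowest p for PRL. Capitals mark TCACNCCAC in SREBF2, CACGTG in INSIG1 and CCAAT boxes (or ATTGG, the same box on the other strand) in each.
SREBF2: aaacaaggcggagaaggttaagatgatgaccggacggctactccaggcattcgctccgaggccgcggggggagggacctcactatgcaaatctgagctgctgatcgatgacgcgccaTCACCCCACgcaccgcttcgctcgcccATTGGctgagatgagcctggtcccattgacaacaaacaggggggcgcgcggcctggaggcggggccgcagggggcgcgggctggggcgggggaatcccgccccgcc
FDPS: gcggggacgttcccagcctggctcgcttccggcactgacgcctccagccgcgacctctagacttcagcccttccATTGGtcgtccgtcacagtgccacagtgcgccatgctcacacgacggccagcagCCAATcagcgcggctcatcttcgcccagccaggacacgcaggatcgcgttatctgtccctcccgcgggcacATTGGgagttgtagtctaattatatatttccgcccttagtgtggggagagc
MVD: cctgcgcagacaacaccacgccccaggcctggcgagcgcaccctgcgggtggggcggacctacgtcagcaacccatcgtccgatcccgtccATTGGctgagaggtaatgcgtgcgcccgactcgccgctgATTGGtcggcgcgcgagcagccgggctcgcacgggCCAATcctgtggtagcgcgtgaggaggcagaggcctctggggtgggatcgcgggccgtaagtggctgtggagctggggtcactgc
INSIG1: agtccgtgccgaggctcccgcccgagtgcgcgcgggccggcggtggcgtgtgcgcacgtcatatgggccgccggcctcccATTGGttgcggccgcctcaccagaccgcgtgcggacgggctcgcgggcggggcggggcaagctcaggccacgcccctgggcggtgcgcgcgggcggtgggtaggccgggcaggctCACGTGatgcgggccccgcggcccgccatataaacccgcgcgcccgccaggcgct
MYLIP: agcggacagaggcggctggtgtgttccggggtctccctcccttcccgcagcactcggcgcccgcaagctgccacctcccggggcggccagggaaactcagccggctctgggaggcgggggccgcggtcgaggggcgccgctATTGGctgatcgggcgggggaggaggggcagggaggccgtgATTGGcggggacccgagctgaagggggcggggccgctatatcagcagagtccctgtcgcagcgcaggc
The SREBF2 stretch lies at chr22:41832855-41833104 on the plus strand, and that of FDPS at chr1:155308616-155308865 on the plus strand. MVD's lies at chr16:88663092-88663341 on the minus strand, INSIG1's at chr7:155297628-155297877 on the plus strand and MYLIP's at chr6:16128836-16129085 on the plus strand. The sterol element of SREBF2 began 133 bases before the start, and a CCAAT box began 106 bases before the start. FDPS and MVD each carried 3 CCAAT boxes in these 250 bases, MYLIP 2 and INSIG1 1.

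Over both strands of the whole 300-base windows, CCAAT was present in at least 1 window of 21 of the 28 members (75.0%) and of 42.4% of the 11869 tested genes with a window. The GC box GGGCGG was present in 27 of 28 members (96.4%) and in 75.0% of those genes. CACGTG, the E-box that SREBP-1 can also bind, was found in 5 members (17.9%: SCAP, INSIG1, ABCA1, SC5D and LSS) against 12.2%. The sterol element TCACNCCAC, with any base at N, was found in SREBF2 alone (3.57% of members), against 1.40% of tested genes. None of these motifs contains another. The STAT5-type palindrome TTCNNNGAA was found in 0 of 28 members against 8.46% of tested genes. As shares of all 35116 windows in the table these motifs stood at 34.6% (CCAAT), 45% (GGGCGG), 7.26% (CACGTG), 1.13% (TCACNCCAC) and 7.66% (TTCNNNGAA). These are letter matches in short windows and say nothing of binding.

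Levels between genes were compared per kilobase of exon (CPM, the count scaled to library size and TMM factor, divided by exon length in GENCODE 29). SREBF1, the SREBP-1 gene, was the most abundant member at a mean of 479 CPM per kb over 12 libraries, the 99.6th percentile of tested genes. SCD, the Δ9 desaturase that makes monounsaturated fatty acids, followed at 231 and FASN, the multi-enzyme fatty acid synthase, at 146 CPM per kb. A group of neighbours lay between 38.5 and 56.7 CPM per kb: FDFT1 (squalene synthase), ACLY (ATP citrate lyase), SREBF2, SCAP, TM7SF2 (a sterol reductase), LSS (lanosterol synthase) and DHCR7, the reductase that yields cholesterol. The ranges over libraries of these 7 overlapped one another, and of the 31 pairs of neighbours in the whole order 30 had overlapping ranges, the exception being CYP51A1 and ABCA1. The sterol genes were far from even. HMGCS1, the cytosolic synthase of the mevalonate pathway, stood at 0.946 and CYP51A1, the lanosterol demethylase, at 0.544 CPM per kb. The level of CYP51A1 is uncertain, since 79.4% of its exon bases also belong to a same-strand gene model listed at 0 in all libraries. The cholesterol exporter ABCA1 was last at 0.0805 CPM per kb. With the longest transcript in place of all exons the first 4 and the last 5 ranks were the same, and the members' median was 12.6 in place of 8.12 CPM per kb.

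**Figure D1:**
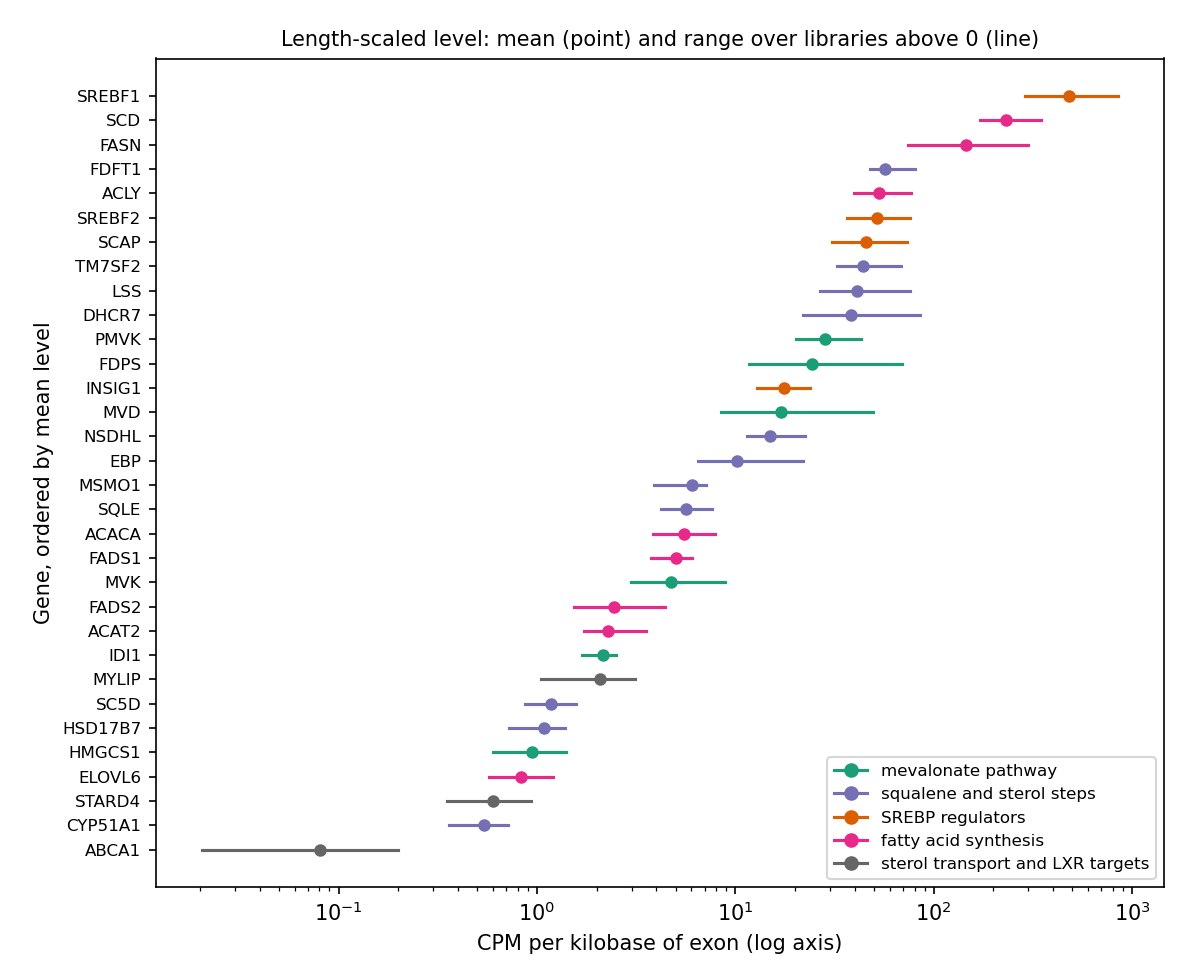
Level of each gene in CPM per kilobase of exon on a log axis, ordered by its mean over 12 libraries (point), with the range over libraries above 0 (line) and colour for role. SREBF1, SCD and FASN lead at 479, 231 and 146, and ABCA1, with 1 library at 0, is lowest at 0.0805.

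Depth was 36120808 to 57324865 counts per library. PRLR, which gene counts cannot split by isoform or tail, lay between 3098 and 3958 CPM in all 12 libraries. CISH, a STAT5 target, lay at 3.17 to 5.26 CPM in untreated and 54.2 to 70.7 CPM in PRL libraries, so every library matched its treatment label. Of 8 epithelial markers all were present (summed 1841 to 10540 CPM), with EPCAM low at 1.16 to 5.33. Of 7 fibroblast markers 4 reached 1 CPM somewhere (summed 423 to 617, mostly DCN and COL1A1), while PDGFRA and LUM were at or near 0. Of 6 endothelial, 7 leukocyte and 5 adipocyte markers 2, 1 and 1 reached 1 CPM, and PTPRC, CD3E, ADIPOQ, LEP, CDH5 and KDR were at or near 0. The endothelial markers that did were PECAM1 (0.804 to 2.76 CPM) and VWF (0.0422 to 1.08 CPM). The adipocyte marker was PLIN1 (0.747 to 9.46 CPM). The leukocyte sum, nearly all CD14, was 11.2 to 21.0 CPM in untreated and 18.2 to 30.9 CPM in PRL libraries, while PTPRC was at 0 in 11 of the 12. The intact PRL library of replicate 2 had the fewest genes detected, 19073 against 19905 to 25200 in the others. Its TMM factor of 0.79 was also the lowest, next to 0.886 in intact untreated 2, which had 19905 genes detected. The libraries titled 1 to 4, which are replicate 1 of each group, stood apart from the other 8, as the member values show.

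None of the 32 members passed the test for PRL averaged over both receptor pairs (edgeR quasi-likelihood, adjusted p under 0.05). Over all tested genes 0.119% did (21 of 17677). The smallest adjusted p among members was 0.869, and at an unadjusted p under 0.05 there was 1 member, MYLIP, against 3.81% of all genes. That count was 5 without intact PRL 1, 7 without a count filter, 6 with a block for title runs and 4 with limma-voom. It was 2 without replicate 1 of either intact untreated or deleted PRL, and 2 with 1 surrogate variable or the GC and length offset. The share of all genes at that threshold is not given for these fits, so these counts have no background. At an adjusted p under 0.05 all genes called numbered 27 without intact PRL 1, 124 without a count filter, 198 with the block and 116 with limma-voom. The fitted log2 fold change was above 0 in 23 of 32 members and its median was 0.15, beside 46.1% of all tested genes above 0 and a median of -0.02. The median half-width of the members' 95% intervals was 0.43, without adjustment over genes. Differences beyond that size, such as -0.63 for MYLIP, 0.65 for FDPS and 0.59 for MVD, did not pass the adjusted test. The unadjusted intervals of FDPS (-0.15 to 1.45) and MVD (-0.20 to 1.38) were wider than the median and included 0. A change of that size in a single member could therefore go uncalled here. In such bulk RNA a smaller share of cells expressing a gene and less RNA per cell cannot be told apart. Without the intact PRL library of replicate 2 the members' median was 0.04. The averaged PRL difference of 20 members then shrank by over 1.5 times, that of 5 changed sign (MVK, PMVK, INSIG1, SCD and FADS1) and that of SREBF1 grew, while HMGCS1, IDI1, CYP51A1, ACACA, ELOVL6 and MYLIP stayed within 1.5 times.

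**Figure D2:**
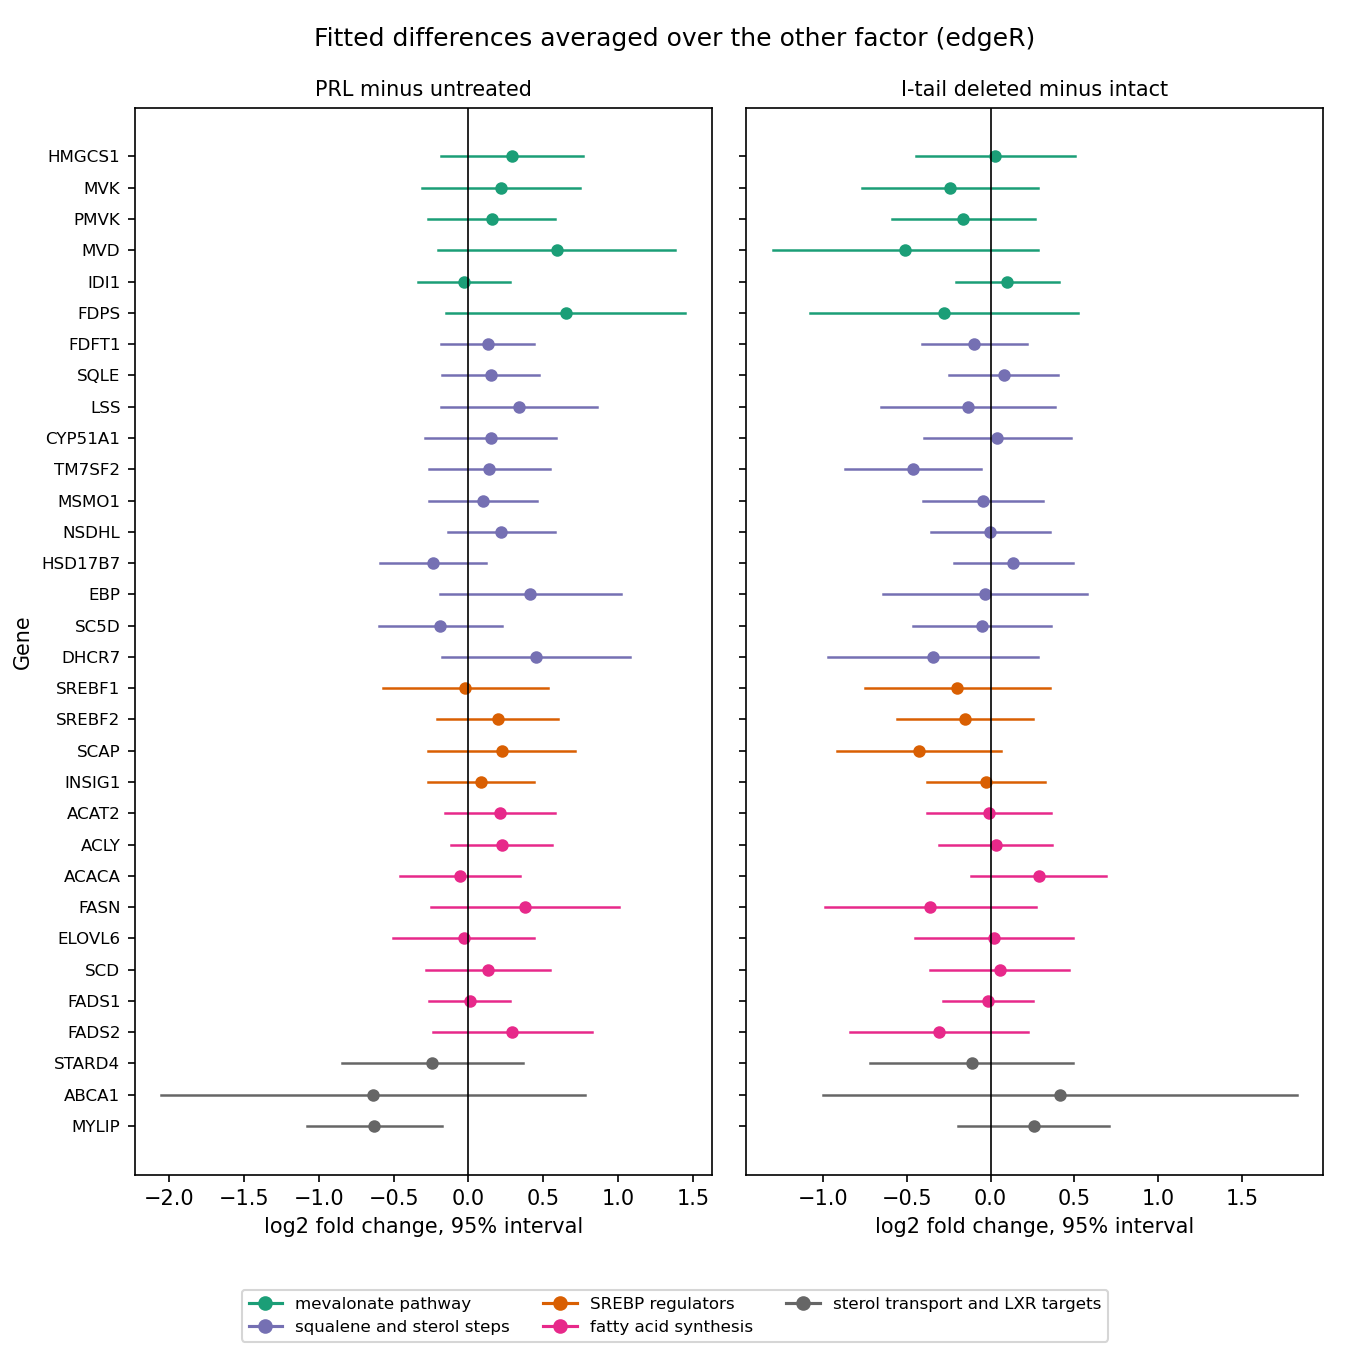
Log2 fold change (point) and 95% interval (line) of each gene for PRL minus untreated (left) and I-tail deleted minus intact (right), each averaged over the other factor, coloured by role. For PRL the interval of MYLIP alone lies off 0, and for the deletion that of TM7SF2 alone.

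In the mevalonate pathway 5 of 6 members lay above 0 for PRL, with a median of 0.26, and none passed the test. FDPS (ENSG00000160752, chr1:155308748-155320666), which makes farnesyl diphosphate, was at 44.9, 94.2 and 76.8 CPM in intact untreated (replicates 1, 2 and 3) and at 48.8, 258 and 81.0 in intact PRL. In the deleted groups it was at 43.5, 69.5 and 91.1 CPM untreated and at 51.7, 95.9 and 132 with PRL. One library, intact PRL 2, was far above the rest, and treated and untreated values overlapped in both receptor pairs. The fitted log2 difference for PRL was 0.65 ± 0.37 (SE), adjusted p = 0.98. Without intact PRL 2 it was 0.16.

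MVD (ENSG00000167508, chr16:88651935-88663161), the decarboxylase that yields isopentenyl diphosphate, had its highest value in the same library. It stood at 44.7, 96.7 and 68.5 CPM in intact untreated and at 43.0, 233 and 82.9 in intact PRL. Deleted untreated libraries held 39.8, 54.0 and 73.9 CPM and deleted PRL libraries 42.1, 66.2 and 113. The PRL difference was 0.59 ± 0.37, adjusted p = 0.98, and 0.13 without intact PRL 2. FDPS and MVD spread 5.94-fold and 5.86-fold from the lowest to the highest library, the widest among the 31 members with no library at 0. They were also the 2 members that passed when no filter on low counts was used (edgeR adjusted p = 0.0119 for FDPS and 0.0456 for MVD).

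The 4 remaining mevalonate genes varied less. HMGCS1 ranged from 2.81 to 6.56 CPM, with a PRL difference of 0.29 ± 0.22. The kinases MVK (19.3 to 57.5 CPM) and PMVK (25.9 to 55.0 CPM) gave 0.22 ± 0.24 and 0.15 ± 0.20. IDI1, the isomerase of isopentenyl diphosphate, kept within 7.37 to 10.9 CPM over all 12 libraries and gave -0.03 ± 0.14, a 1.48-fold range that was the narrowest of the members with no library at 0.

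Of the 11 squalene and sterol genes 9 lay above 0 for PRL, with a median of 0.15, and none passed the test. DHCR7 was at 96.4, 199 and 150 CPM in intact untreated and at 104, 353 and 174 in intact PRL. In deleted cells it was at 90.9, 125 and 148 CPM untreated and 101, 154 and 225 with PRL. The groups overlapped in both pairs, and the PRL difference was 0.45 ± 0.29 (adjusted p = 0.98), or 0.16 without intact PRL 2. EBP, the sterol isomerase, lay at 15.7 to 36.1 CPM in 11 libraries and at 52.5 in intact PRL 2, with a difference of 0.41 ± 0.28 that was 0.07 without that library. LSS ranged from 194 to 549 CPM and gave 0.34 ± 0.24, or 0.12 without it.

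The early squalene genes differed little between libraries. FDFT1, which commits farnesyl diphosphate to sterols, ranged from 250 to 419 CPM (0.13 ± 0.15), and SQLE, the squalene epoxidase, from 18.2 to 32.9 CPM (0.15 ± 0.15). The demethylation and later genes MSMO1 (11.3 to 20.7 CPM, 0.10 ± 0.17), NSDHL (22.9 to 44.9 CPM, 0.22 ± 0.17) and TM7SF2 (111 to 232 CPM, 0.14 ± 0.19) lay slightly above 0 on the log2 scale. The ketoreductase HSD17B7 (3.47 to 6.62 CPM, -0.24 ± 0.16) and the desaturase SC5D (4.84 to 8.76 CPM, -0.19 ± 0.19) lay below it.

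CYP51A1 (ENSG00000001630, chr7:92112151-92134803) was the member whose values lay higher in every intact PRL library than in every intact untreated one. It read 1.97, 1.30 and 1.51 CPM in intact untreated and 2.57, 2.00 and 2.27 in intact PRL, while deleted cells gave 2.51, 2.13 and 1.70 untreated and 2.31, 1.51 and 1.61 with PRL. Intact groups did not overlap, deleted groups did, and 2.61% of all tested genes had intact groups separated upward. The log2 difference was 0.52 ± 0.29 in intact cells (adjusted p = 1) and -0.22 ± 0.29 in deleted cells, and their difference of -0.74 ± 0.41 did not pass the test (adjusted p = 1). Its counts were 47 to 119 reads, and 79.4% of its exon bases in GENCODE 29 also belong to a same-strand gene model listed at 0 in all libraries, so its count is uncertain.

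The SREBP regulators gave PRL differences between -0.02 and 0.22. SREBF1 was at 3098, 6828 and 3133 CPM in intact untreated, 3260, 4433 and 3894 in intact PRL, 3261, 4676 and 2315 in deleted untreated and 3127, 5501 and 2593 in deleted PRL. Its highest value came from replicate 2 in all 4 groups, and treated and untreated libraries overlapped. The PRL difference was -0.02 ± 0.26. SREBF2 ranged from 277 to 576 CPM (0.19 ± 0.19) and SCAP, the escort protein, from 199 to 471 CPM (0.22 ± 0.23). INSIG1, an SREBP target that retains SCAP in the endoplasmic reticulum, was at 72.7, 54.3 and 60.0 CPM in intact untreated and 66.1, 87.1 and 46.8 in intact PRL. In deleted cells it was at 70.0, 49.5 and 65.2 CPM untreated and 67.5, 53.4 and 73.8 with PRL, a difference for PRL of 0.09 ± 0.16. None of the 4 passed the test.

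Of the 8 genes grouped under fatty acid synthesis, ACAT2 included, 6 lay above 0 for PRL, with a median of 0.17, and none passed the test. FASN read 695, 1933 and 1287 CPM in intact untreated and 902, 2785 and 1628 in intact PRL. It read 804, 1196 and 1187 CPM in deleted untreated and 857, 1460 and 1648 in deleted PRL. Replicate 1 was lowest in all 4 groups, the groups overlapped, and the PRL difference was 0.38 ± 0.29 (adjusted p = 0.98), or 0.14 without intact PRL 2. SCD ranged from 917 to 1855 CPM (0.13 ± 0.19, or -0.04 without that library) and ACLY, which supplies cytosolic acetyl-CoA, from 207 to 399 CPM (0.22 ± 0.16).

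ACACA, the acetyl-CoA carboxylase, ranged from 50.1 to 103 CPM and gave -0.06 ± 0.19. The cytosolic thiolase ACAT2 (7.46 to 15.3 CPM) gave 0.21 ± 0.17 and the elongase ELOVL6 (4.16 to 8.76 CPM) gave -0.03 ± 0.22. The desaturases of polyunsaturated fatty acids, FADS1 (38.5 to 62.1 CPM) and FADS2 (16.9 to 48.5 CPM), gave 0.01 ± 0.12 and 0.29 ± 0.25. FADS1 and FADS2 overlap on opposite strands, over 490 exon bases.

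The 3 genes of transport and LXR response all lay below 0 for PRL, with a median of -0.63. MYLIP (ENSG00000007944, chr6:16129125-16148248), the ubiquitin ligase that marks lipoprotein receptors for degradation, was at 8.76, 6.23 and 6.68 CPM in intact untreated and at 6.02, 3.17 and 3.90 in intact PRL. In deleted cells it was at 8.49, 9.48 and 6.28 CPM untreated and at 6.18, 6.77 and 3.80 with PRL. The intact groups did not overlap, a separation downward that 2.89% of all tested genes also had, and the deleted groups overlapped. The PRL difference was -0.63 ± 0.21 (95% interval -1.08 to -0.18), with an unadjusted p of 0.00998 and an adjusted p of 0.869, so it did not pass the test. Leaving out each library in turn gave -0.78 to -0.52.

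STARD4, a cytosolic sterol carrier, ranged from 2.00 to 5.33 CPM and gave -0.24 ± 0.28. ABCA1 had 0 to 98 reads per library: 1.34, 1.27 and 0.729 CPM in intact untreated, 1.19, 0 and 0.341 in intact PRL, 2.26, 0.232 and 0.771 in deleted untreated and 1.67, 0.628 and 0.535 in deleted PRL. A count of 0 at the depth of intact PRL 2 allows up to 0.0896 CPM (3 reads, counting error only). Its difference of -0.64 ± 0.66 had the widest interval of the members, -2.05 to 0.78.

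**Figure D3:**
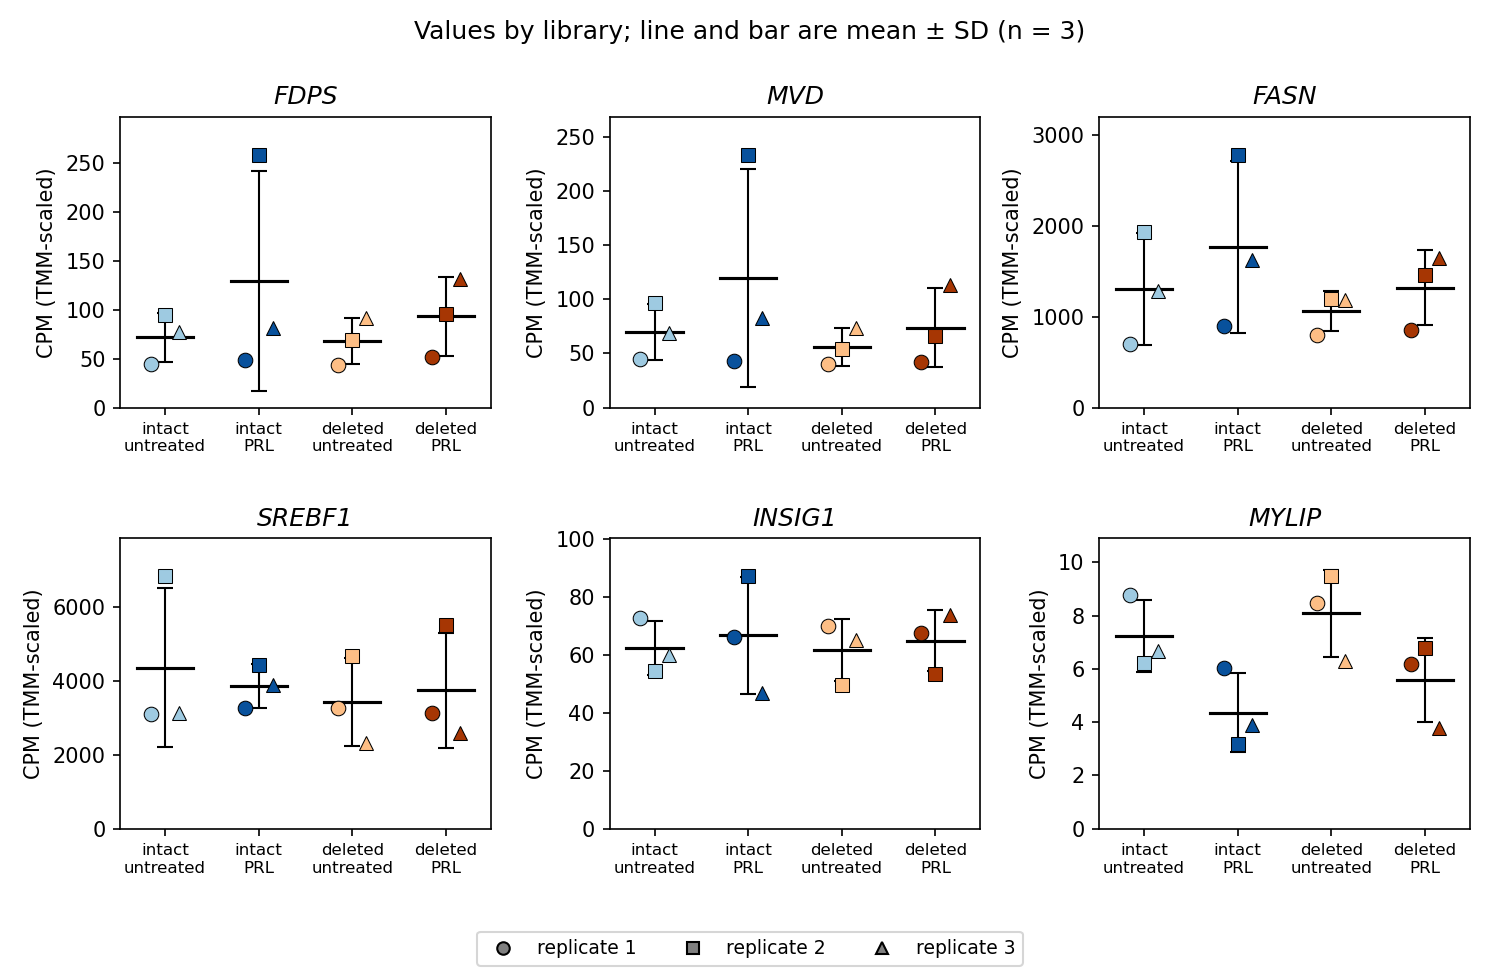
TMM-scaled CPM of 6 genes in each library (circle, square and triangle for replicates 1, 2 and 3), with the group mean and SD (n = 3). FDPS and MVD peak in intact PRL 2 at 258 and 233 CPM, replicate 1 is lowest in every group for FDPS, MVD and FASN, and SREBF1 is highest in replicate 2 of each group.

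PRL was then compared within each receptor pair. With the intact tail 0 of 32 members were called for PRL (background 0.017%), 24 lay above 0 and the median was 0.20, which was -0.07 without intact PRL 2. With the deleted tail 0 were called (background 0.017%), 23 lay above 0 and the median was 0.10. At an unadjusted p under 0.05 there was 1 member with the intact tail (MYLIP) against 2.55% of all genes, and 0 with the deleted tail against 1.79%. The first count was 7 without intact PRL 1, 2 without intact PRL 3 and 0 without intact PRL 2. It was 7 with the title-run block or without a count filter, and 4 with limma-voom. It was 3 with 1 surrogate variable or the GC and length offset, and 0 with library size alone. The count for the deleted tail was 1 with the block or without the filter. The share of all genes at that threshold is not given for these fits. At an adjusted p under 0.05 all genes called with the intact tail numbered 62 with the block and 46 without the filter, against 3 in the main fit. The interaction, which tests whether the PRL effect differed between the pairs, called 0 members and 0 of all genes (0%), with 0 members and 0.718% of genes at an unadjusted p under 0.05. The members' median interaction was -0.10 and turned to 0.19 without intact PRL 2. MYLIP gave -0.72 ± 0.30 with the intact and -0.54 ± 0.30 with the deleted tail, an interaction of 0.19 ± 0.42. FDPS gave 0.85 ± 0.53 and 0.45 ± 0.52, an interaction of -0.39 ± 0.74. Interaction intervals were wide, with a median half-width of 0.86, so neither a difference nor its absence was shown.

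Deleting the I-tail called 0 of 32 members when averaged over treatments (background 0.00566%), 0 in untreated cells (background 0.00566%) and 0 in PRL-treated cells (background 0.00566%). At an unadjusted p under 0.05 the counts were 1, 0 and 0, against 2.28%, 0.837% and 1.62% of all genes. Without intact PRL 1 they were 4, 1 and 6, and with limma-voom 4, 3 and 3. Over the other 11 leave-one-out fits they lay at 0 to 2, 0 to 2 and 0. The shares of all genes at that threshold are not given for these alternative fits. The averaged median was -0.04, with 11 of 32 members above 0 and 55.9% of all genes above 0. In PRL-treated cells 5 of 32 lay above 0, with a median of -0.12, which turned to 0.11 without intact PRL 2.

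TM7SF2 (ENSG00000149809, chr11:65111845-65116384) was the member with the lowest p for the deletion. It read 119, 217 and 161 CPM in intact untreated, 111, 232 and 201 in intact PRL, 123, 116 and 121 in deleted untreated and 115, 132 and 150 in deleted PRL. The 4 replicate 1 libraries lay between 111 and 123 CPM whatever the receptor, and intact and deleted values overlapped. The averaged difference was -0.46 ± 0.19, with an unadjusted p of 0.0281 and an adjusted p of 0.991. SCAP followed at -0.43 ± 0.23, and MVD, the member farthest below 0, gave -0.51 ± 0.37, both with an adjusted p of 0.991. All 4 regulators lay below 0, between -0.43 for SCAP and -0.03 for INSIG1, and ACACA (0.29 ± 0.19) and ABCA1 (0.41 ± 0.66) were the members farthest above 0.

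Much of the members' spread ran across the groups, library by library. Intact PRL 2 held the highest value of 20 of the 32 members, and of 20.8% of all tested genes. By transcript GC content, 15 of the 16 members at or above the members' median of 50.1% were highest there, against 5 of the 16 below it. Their median log2 deviation from the gene's own mean was 0.83 in the GC-rich and 0.08 in the GC-poor members. Across the 32 members the correlation of GC content with that deviation ran from -0.80 (intact PRL 1) to 0.75 (intact untreated 2) over the 12 libraries, and was 0.53 in intact PRL 2. The points share a library, and over 17050 tested genes the same correlation ran from -0.50 to 0.41.

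**Figure D4:**
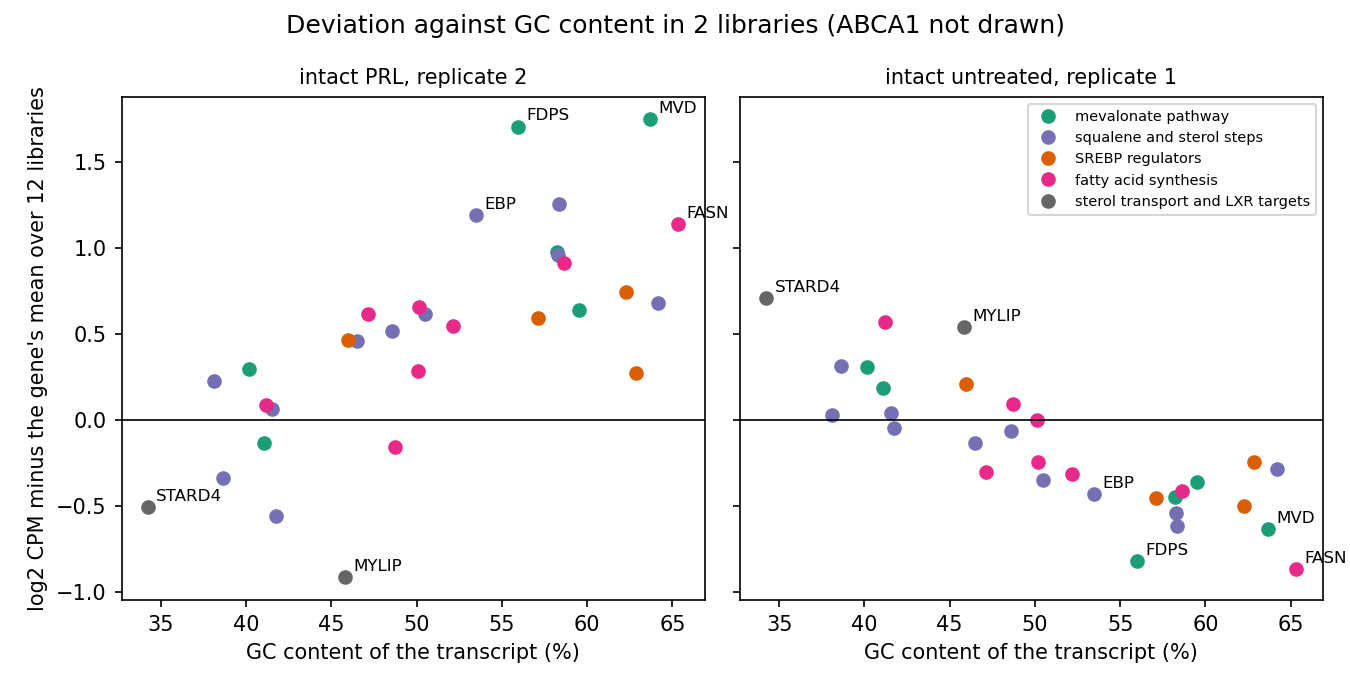
Log2 deviation of each gene from its own mean over 12 libraries against transcript GC content (%), in intact PRL replicate 2 (left) and intact untreated replicate 1 (right), coloured by role, without ABCA1. GC-rich genes such as MVD and FASN lie high on the left and low on the right, and STARD4 and MYLIP lie the other way.

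The 4 libraries titled 1 to 4 were below all other 8 in 11 members, MVK, PMVK, MVD, FDPS, LSS, EBP, DHCR7, SREBF2, SCAP, FASN and FADS2, as were 13.6% of all tested genes. They were above all other 8 in SC5D and ELOVL6, as were 12.8% of genes. MVD, for example, lay at 39.8 to 44.7 CPM in these 4 and at 54.0 to 233 CPM elsewhere, and FDPS at 43.5 to 51.7 against 69.5 to 258 CPM. Each run of 4 titles holds 1 library of every group, so this separation ran across receptor and treatment alike. The labels do not say what a run shares.

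Within each run of titles PRL was set against untreated, 1 library each, with no test. With the intact tail the members' median log2 difference was 0.08, 0.54 and -0.01 in runs 1, 2 and 3, and with the deleted tail 0.06, 0.13 and 0.13, while the median of all tested genes lay between -0.05 and 0.01 in these 6 comparisons. FDPS, LSS, DHCR7, SREBF2, SCAP and FASN were higher with PRL in 6 of 6 such comparisons, as were 8.37% of all tested genes, and MYLIP and STARD4 in 0 of 6, as were 6.19%. The 6 differences of MYLIP lay between -0.97 and -0.46, and those of FASN between 0.09 and 0.53. For PRL averaged over receptors, the GC-rich members had a median of 0.22 (15 of 16 above 0) and the GC-poor ones -0.01 (8 of 16). With an offset for GC content and length the median was 0.20 over all members and 0.02 over all tested genes. Without it these were 0.15 and -0.02. Whether library composition had a part in the members' differences was not tested beyond these values.

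**Figure D5:**
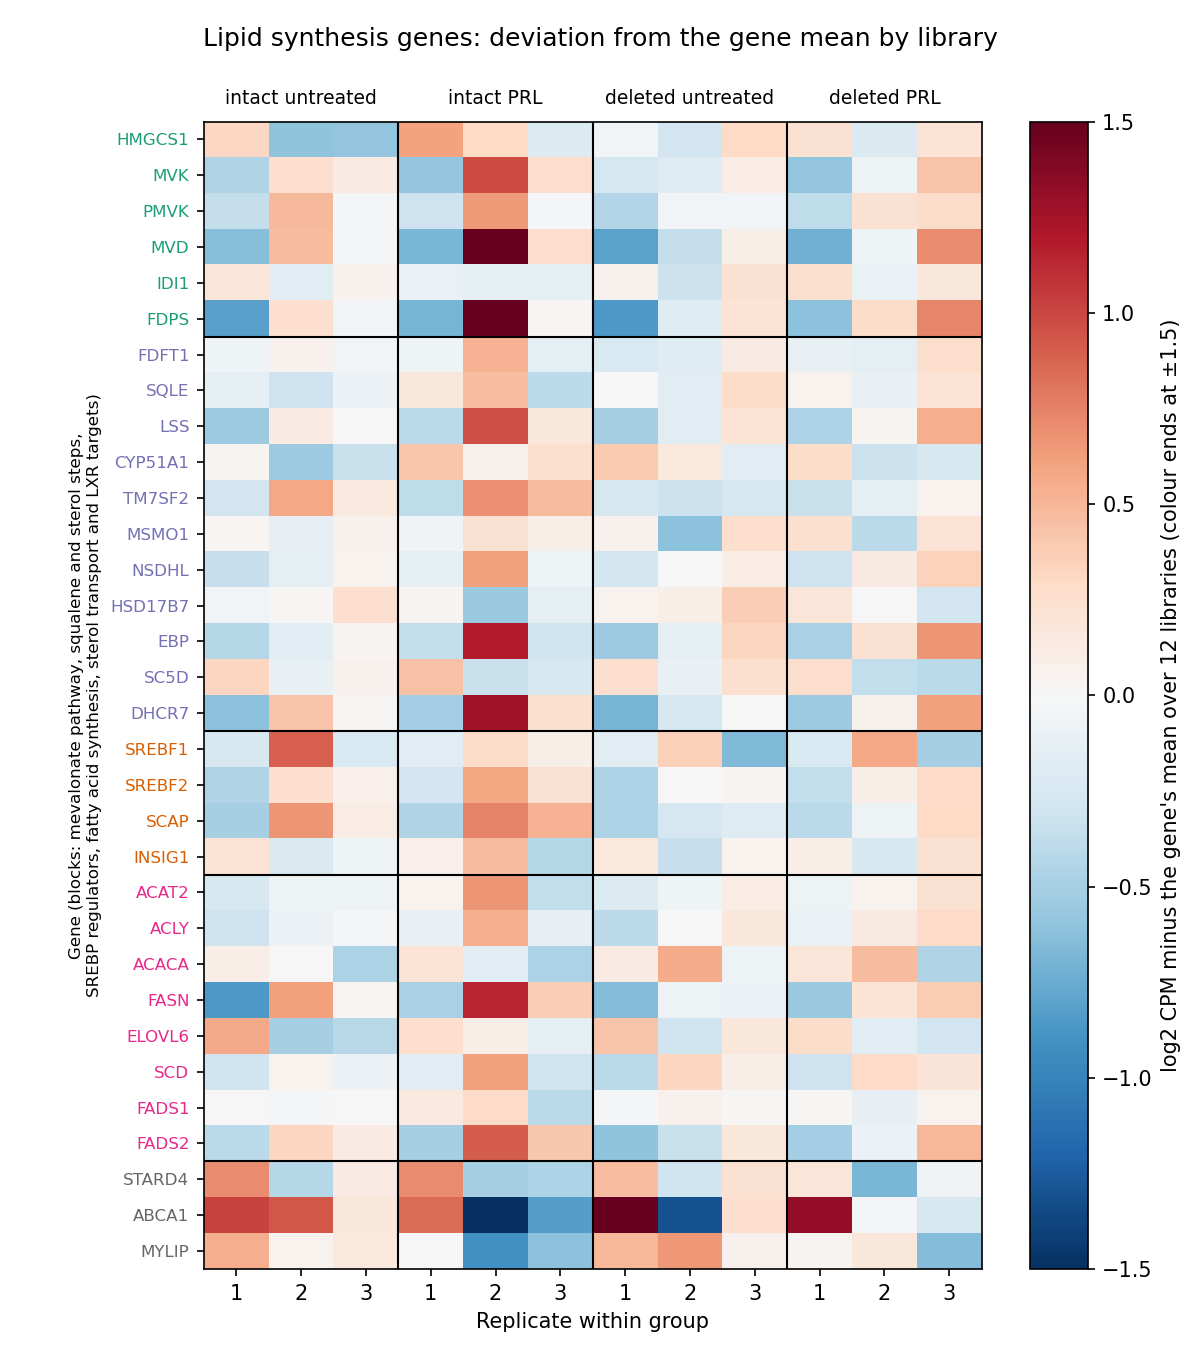
Log2 CPM minus the gene's own mean over 12 libraries, for 32 genes (rows, in blocks by role) and 3 replicates in each group (columns), with colour ending at ±1.5. The column of intact PRL replicate 2 is red for most synthesis genes, the replicate 1 columns are blue for MVD, FDPS and FASN, and ABCA1 and MYLIP run opposite to them in intact PRL 2.

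Other genes of lipid metabolism formed a comparison list of 83, of which 80 were tested, and 0 were called in any of the 7 comparisons. For PRL averaged over receptors 35 of 80 lay above 0, with a median of -0.02, beside 23 of 32 and 0.15 for the members. All 8 genes of SREBP processing and sterol sensing lay below 0, with a median of -0.09. The 3 with the lowest p were PPARGC1B, a coactivator of SREBP-1 (0.81 ± 0.24, adjusted p = 0.589), RXRA, the partner of LXR (0.38 ± 0.12, adjusted p = 0.692), and SCARB1, a lipoprotein receptor (0.33 ± 0.16, adjusted p = 0.980). RXRA lay at 201 to 238 CPM in the untreated and 257 to 327 CPM in the PRL libraries, without overlap, as did 0.441% of all tested genes in that direction and 0 of the 32 members. For the deletion the 3 were POR, the electron donor of CYP51A1 and SQLE (-0.34 ± 0.12), AGPAT2 (-0.44 ± 0.18) and CYB5B (0.27 ± 0.12), each with an adjusted p of 0.991.

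By GENCODE 29, 15 of the 32 members share exon bases with another gene, 11 of them only with genes on the opposite strand. With no strand setting stated for the counts, how reads in the shared bases were assigned is not known. For the pairs named next, the shared bases were 0.444% (FADS2 with FEN1) to 18.6% (FDPS with RUSC1-AS1) of the member's exon bases. The pairs whose partner reached 1 CPM in any library were MVK with MMAB, SREBF1 with RAI1 (286 to 476 CPM), ACAT2 with TCP1 (51.2 to 98.6 CPM, against 7.46 to 15.3 for ACAT2), FADS1 with FADS2, TM7SF2 with VPS51, FADS2 with FEN1, FDPS with RUSC1-AS1 (0.579 to 2.15 CPM), SREBF2 with SREBF2-AS1 (0.346 to 1.86 CPM) and STARD4 with STARD4-AS1. STARD4-AS1 lay at 0.269 to 3.96 CPM, close to the 2.00 to 5.33 CPM of STARD4 itself. For ACAT2 the partner was the more abundant gene throughout.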

How the data were processed

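RNA of 12 polyA-selected libraries was sequenced. The authors deposited whole-number counts for each gene in each library. Per the submitters' processing notes, GRCh38 was the build, and FastQC, STAR 2.7.9a, Subread and featureCounts were the tools. Annotation release and strand setting: not given in the sources used here. Of 62703 entries, 1 without values was left out. After filterByExpr and TMM scaling, edgeR 4.0.16 in R 4.3.3 fitted 1 mean per group to all 12 libraries, leaving 8 residual degrees of freedom (BCV 0.303). The robust quasi-likelihood F test gave 7 contrasts, with Benjamini-Hochberg adjustment over 17677 genes and calls at 0.05. CPM are TMM-scaled, log values use a prior count of 2, and ± after a log2 difference is its SE. Replicate libraries differed by more than counting noise (chi-square per degree of freedom of 57.2 to 240 over genes with a summed count of at least 20). Gene coordinates (GRCh38), exon lengths, GC content and overlaps came from GENCODE 29, promoter windows from RefSeq. The fit was tested on simulated data. The text names all 32 members, the 3 comparison genes with the lowest p for each averaged effect, and PRLR and CISH. Members and lists were chosen with earlier results of these data known. Alternatives were other scalings, filters, DESeq2 1.42.0, limma 3.58.1, 1 surrogate variable (sva 3.50.0), a block for title runs and each library left out. A GC and length offset was chosen after seeing the data.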

Additional observations from a re-analysis of the deposited data

How the results depend on the processing

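Members called stayed at 0 for all 7 comparisons under every alternative run, leave-one-out fits included, except that without a count filter 2 were called for averaged PRL: FDPS (0.66, adjusted p = 0.0119) and MVD (0.60, adjusted p = 0.0456). There 124 of 33852 genes were called, against 21 of 17677. DESeq2, limma-voom and the title-run block called 0 members and 86, 116 and 198 of all genes. With limma-voom the members' median was 0.0069 for PRL with the intact tail and 0.0759 for the deletion in PRL-treated cells. With 1 surrogate variable it was 0.02 for averaged PRL and -0.01 for PRL with the deleted tail, and the averaged deletion median was 0.03, or 0.06 with library size alone. Leaving out 1 library gave medians from 0.04 to 0.23 for averaged PRL, -0.072 to 0.33 with the intact and -0.01 to 0.21 with the deleted tail. For the deletion they ran from -0.15 to 0.01 averaged, -0.11 to 0.04 untreated and -0.27 to 0.11 with PRL, and for the interaction from -0.23 to 0.19. Library size alone moved the median of all genes for averaged PRL from -0.02 to -0.12, and the members' MYLIP difference to -0.71. Over 5280 member values under alternatives, 2 passed the threshold and 488 changed sign, none of them called.

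The labels give no replicate numbers. Same-run libraries had deviations correlated at 0.0966 to 0.603, and all 12 correlated best with their own run, a hint from the data. Libraries of other runs and groups were correlated at -0.447 to 0.301. Run 1 (0.43 to 0.603) lay above that range, while runs 2 (0.0984 to 0.356) and 3 (0.0966 to 0.342) overlapped it. With a replicate block by title run MYLIP gave -0.64 (adjusted p = 0.0598), and 0 members were called in any comparison. Depth and 3 libraries per group limit single members to the interval widths given, which are not adjusted over genes. The counts below 120 reads of ABCA1 and CYP51A1 add counting error.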
